A study of Mus musculus with 18 samples.

Results

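Liver transcriptomes of the 12 libraries from mice given a high-fat diet and streptozotocin (STZ) were compared with those of the 6 libraries from mice given neither, out of 18 libraries in the series. Libraries were assigned to the 2 sides by their treatment labels, and the genes described are those that differed in each of the 4 STZ groups, whatever oligosaccharide or microbiota the mice also received. The study used this model of type 2 diabetes in young mice to ask whether gut microbiota modified by alginate oligosaccharide (AOS), a fragment of a seaweed polysaccharide, improves metabolism and semen quality. All mice were male ICR mice, an outbred stock, 10 weeks of age when the liver was taken, and each group had 3 libraries. Con was the control, and A10 received 10 mg/kg AOS. HS received the high-fat diet and STZ, and HSA10 received the same with 10 mg/kg AOS. A10-FMT and Con-FMT received the diet and STZ and then intestinal microbiota, from donors dosed with 10 mg/kg AOS or from control donors. The transplanted microbiota was pooled over the donors of a group. HSA10 is known from its labels alone. The label of A10 does not state the diet, and the study's methods describe an A10 group among the microbiota donors without saying whether its livers were sequenced. Diet and STZ were given together in all 4 groups, so their effects cannot be told apart. No label says that the libraries came from separate animals, and p-values measure the spread between libraries. Fewer cells of a type and less RNA per cell cannot be told apart in whole liver.

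STZ is toxic to the insulin-producing beta cells of the pancreas. In the liver, insulin turns on the synthesis of fatty acids and cholesterol through transcription factors of the SREBP family, and cholesterol from the diet lowers the activity of the SREBP that drives its own synthesis. When insulin is low or fat is abundant, FOXO1 and the fatty acid receptor PPAR alpha turn on genes for glucose output, fatty acid oxidation and ketone body formation.

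The deposited values are RPKM, the reads of a gene scaled to its length and to the mapped reads of the library. RPKM summed to between 692818 and 806937 per library, and the steps between low values gave a relative depth of 0.959 to 1.03 around a mean of 1, with about 11300000 reads in a library. Albumin (Alb), the main hepatocyte product, stood at 21271 to 37253 RPKM in all 18 libraries. A total of 3 libraries stood apart. Con-FMT replicate 3 held 3.95% of its RPKM in pancreatic acinar markers, against at most 0.00681% in the others. Con replicate 3 lay between Con replicates 1 and 2 for 270 of the 304 genes (88.8%) that differed at least 2-fold between those replicates, and A10 replicate 3 lay between the other A10 replicates for 229 of 256 (89.5%). In the other 16 libraries this share was 19.1% to 69.7%. Whether these 2 libraries share RNA with the other replicates of their group was not tested. The test counts each as an independent replicate, so the main counts below are also given without both.

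Log2(RPKM + 1) was compared by limma with 1 mean per group, for the 10204 genes that averaged 1 RPKM or more, and calls were made below an adjusted p of 0.05. In the average of the 4 STZ groups against the mean of Con and A10, 2075 genes (20.3% of those tested) were higher and 1235 (12.1%) were lower. After scaling all libraries to a common median, 1612 were higher and 1880 lower, so that the share of higher calls fell from 62.7% to 46.2%. Leaving out both doubtful libraries, Con replicate 3 and A10 replicate 3, gave 1309 higher and 769 lower. HS had 1745 genes higher (17.1%) and 304 lower (2.98%). HSA10 had 2321 higher (22.7%) and 967 lower (9.48%). A10-FMT had 615 higher (6.03%) and 1133 lower (11.1%). Con-FMT had 1625 higher (15.9%) and 1760 lower (17.2%). The sum of both directions was 2049 in HS and 1113 without HS replicate 2, or 1358 without HS replicate 3, and 1748 in A10-FMT and 1103 without its replicate 3. The median change of all tested genes was 0.11 in HS and between -0.05 and 0.07 in the other STZ groups. With scaling to a common median, 1398 genes were called in HS. The 3 HS libraries had the lowest relative depths, 0.9586 to 0.9649, and the part of this in the HS calls was not tested.

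**Figure D1:**
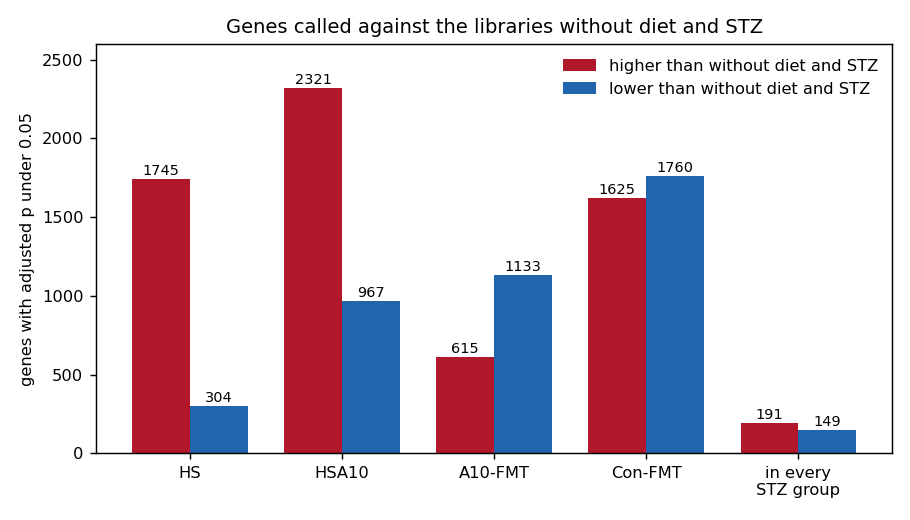
Bars give the number of genes called higher (red) or lower (blue) at an adjusted p under 0.05 in each STZ group against the libraries without diet and STZ, and the last pair gives the genes called in the same direction in all 4 groups. HS had far more genes higher (1745) than lower (304), A10-FMT had more lower (1133) than higher (615), and 191 and 149 genes were shared. With scaling to a common median, HS calls in both directions fell from 2049 to 1398.

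In every STZ group, 191 genes were higher, 1.87% of those tested, and 149 were lower, 1.46%. All 340 were also called in the average, which is the mean of those 4 changes and so adds little. With that scaling, 158 were higher and 237 lower in every group, and these held 127 of the 191 and 145 of the 149. The 4 comparisons share the 6 libraries without diet and STZ, so the joint count has no test of its own. The 12 STZ libraries lay above the other 6 for 164 genes (1.61%), of which 120 belonged to the 191, and below them for 107 (1.05%), of which 86 belonged to the 149. The 12 largest rises and 12 largest falls named below were picked among these 120 and 86 genes. Their lack of overlap is therefore no added result. Only 7 genes (0.0686%) differed between A10 and Con, with 1418 at an unadjusted p under 0.05, and 3 of them, Nr1d1, Nr1d2 and Pck1, were among the 191. Leaving out 1 library at a time gave 0 to 72 such genes, with the 72 found without Con replicate 2 and 0 without Con replicate 1, Con replicate 3 or A10 replicate 3. The shared rises had a median of 0.64 on the log2 scale and the shared falls a median of -0.75. HSA10 had the largest of the 4 changes for 140 of the 191 genes, and Con-FMT for 80 of the 149. Without Con replicate 3 and A10 replicate 3, 98 and 76 genes were called in every group, all of them among the 340, and 191 and 148 kept their call in the average. Without A10-FMT replicate 1 the 191 higher genes became 112. At the limit of the rule, 1600014C10Rik (largest adjusted p over the 4 groups, 0.0499) and Gsta3 (0.0494) were just inside, and Dyrk3 (0.0511) and Cdkn2aipnl (0.0503) just outside.

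**Figure D2:**
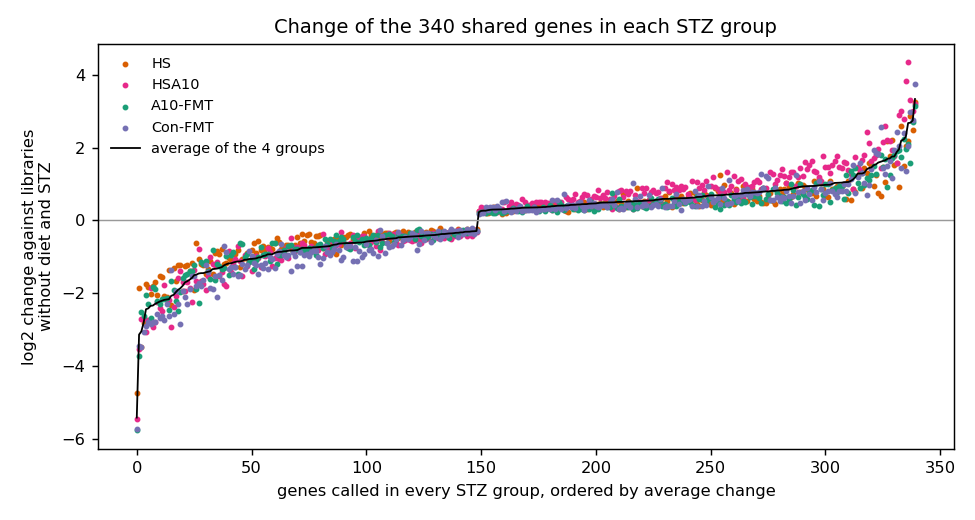
Each of the 340 genes called in every STZ group is placed along the x axis by its average log2 change, and coloured points give its log2 change in each group against the libraries without diet and STZ. All points of a gene lie on 1 side of 0 because the rule that chose the genes requires it. HSA10 is mostly on top among the 191 higher genes and Con-FMT mostly at the bottom among the 149 lower ones.

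Genes of fatty acid synthesis fell, and among them was Scd1, the gene with the deepest fall of the 149. Of 17 members tested, 14 were lower in the average and 8 were lower in every group, beside 12.1% and 1.46% of all tested genes. The median change was -0.82 against 0.04 for all tested genes. Of the 17, 12 and 4 (Acacb, Acss2, Me1 and Scd1) were called without Con replicate 3 and A10 replicate 3. Scd1 (chr19:44394455-44407879, minus strand), the desaturase that makes oleic and palmitoleic acid, ranged from 676 to 2033 RPKM (median 855) in the 6 libraries without diet and STZ and from 7.09 to 73.4 RPKM (median 19.5) in the 12 STZ libraries. Its log2 change was -5.41 ± 0.41 (SE, adjusted p 6.02e-07, limma), the largest of the 340 shared genes. The ranges did not overlap, which the naming rule for the largest shared falls required. Fasn, the fatty acid synthase, fell from 40.5 to 112 RPKM to 4.37 to 34.0 RPKM (log2 change -2.33 ± 0.37). Acss2, which makes acetyl-CoA from acetate, ran from 51.1 to 166 RPKM in the first set and from 13.5 to 36.0 in the second (-2.25 ± 0.22). Acacb, the acetyl-CoA carboxylase of the mitochondrial surface, fell from a median of 14.0 to 1.95 RPKM (-2.16 ± 0.19). Me1 and Slc25a1, which supply NADPH and citrate, Gpam, which starts glycerolipid synthesis, and Mlxipl, the glucose-responsive factor ChREBP, also fell in every group, by 1.08, 0.66, 0.82 and 0.66 on the log2 scale. Srebf1, the gene of the SREBP that drives this pathway had a change of -0.18 and was not called. Fads2 was the 1 member that was higher in the average (0.46), and it was not called without those 2 libraries.

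Cholesterol synthesis and uptake followed the same direction. Of 25 members, 24 were lower in the average and 9 in every group, beside 12.1% and 1.46% of all tested genes. Among the 9 were Acat2, Dhcr7, Ebp, Nsdhl, Pmvk, Sc5d and Tm7sf2, and the median change of the list was -1.70. The group that limited the shared count was HS, with 9 lower, against 23 in HSA10, 23 in Con-FMT and 18 in A10-FMT. With Con replicate 3 and A10 replicate 3 left out, 22 were lower in the average and 3 (Pmvk, Sc5d and Tm7sf2) in every group. Nsdhl (chrX:72918557-72958514, plus strand), a sterol dehydrogenase, ranged from 49.3 to 77.0 RPKM (median 63.7) without diet and STZ and from 4.18 to 41.9 RPKM (median 16.1) with them (-2.29 ± 0.40, adjusted p 5.18e-04, limma). Within HS, replicate 1 stood at 4.18 RPKM and replicates 2 and 3 at 41.9 and 37.5 RPKM. The same library was lowest in HS for Pmvk (8.11 against 27.0 and 27.3 RPKM), a kinase of the mevalonate pathway. The 12 STZ libraries lay below the other 6 for both genes, and for Dhcr7, the last enzyme of cholesterol synthesis (medians 65.6 and 15.6 RPKM).

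**Figure D3:**
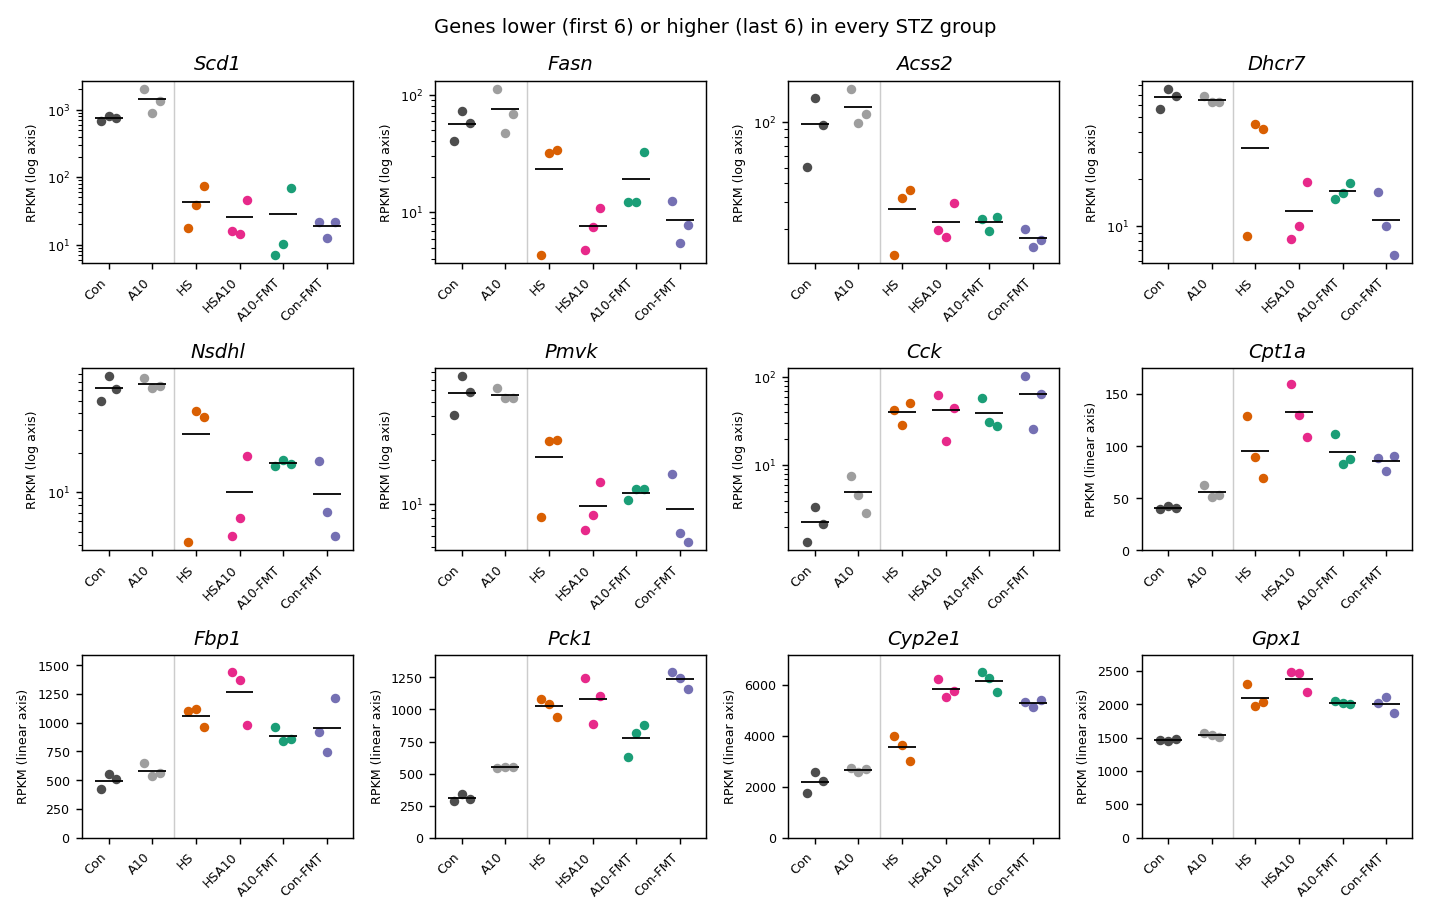
RPKM of 12 genes in each of the 18 libraries (points, 3 per group) with the group mean (line), on a log or linear axis as marked on each panel. For the 6 genes in the first 6 panels every STZ library lies below the Con and A10 libraries, and for Cck, Cpt1a, Fbp1, Pck1, Cyp2e1 and Gpx1 every STZ library lies above them. Scd1 and Cck, among others, were named under a rule that required this.

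Upstream sequences of these genes were read because the members moved together. The windows of 250 bases before the start of the 3 members with the largest change, among those of these 2 lists that were lower in every group and had an entry in the promoter table, from RefSeq on GRCm38.p6, are given here 5′ to 3′ on the strand of the gene, with matches to the CCAAT box on either strand (CCAAT or ATTGG) in capitals. They are Fasn at chr11:120824548-120824797 (minus strand), Nsdhl at chrX:72918271-72918520 (plus strand) and Acss2 at chr2:155517793-155518042 (plus strand).
Fasn: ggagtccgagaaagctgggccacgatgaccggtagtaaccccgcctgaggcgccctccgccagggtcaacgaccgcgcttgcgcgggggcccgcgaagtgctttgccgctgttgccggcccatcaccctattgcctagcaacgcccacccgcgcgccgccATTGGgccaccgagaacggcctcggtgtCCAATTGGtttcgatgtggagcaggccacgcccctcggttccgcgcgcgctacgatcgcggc
Nsdhl: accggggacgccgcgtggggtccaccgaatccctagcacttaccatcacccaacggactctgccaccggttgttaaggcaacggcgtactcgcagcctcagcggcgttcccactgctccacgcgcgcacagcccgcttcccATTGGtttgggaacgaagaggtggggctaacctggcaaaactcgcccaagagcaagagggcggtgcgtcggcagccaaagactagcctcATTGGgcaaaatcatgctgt
Acss2: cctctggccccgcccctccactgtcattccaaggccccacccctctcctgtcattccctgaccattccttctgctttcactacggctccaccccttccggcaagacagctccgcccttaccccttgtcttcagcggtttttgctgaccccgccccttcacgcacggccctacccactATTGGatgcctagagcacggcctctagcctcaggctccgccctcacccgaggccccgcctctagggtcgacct
Fasn held 3 matches, of which 2 overlap, Nsdhl held 2 and Acss2 held 1. A CCAAT box stood in the window of 16 of the 17 tested cholesterol genes with an entry (94.1%), of 10 of 15 fatty acid genes (66.7%), of 49.6% of the genes lower in every group and of 40.8% of those higher, against 40.7% of the 8130 tested genes with an entry. The sterol regulatory element, searched as TCACNCCAC on both strands, was found in 1 of the 17, in 1 of the 15, in 8 of 125 genes lower in every group (6.4%), in 1.32% of those higher and in 1.42% of all, and in none of the 3 windows printed. These counts take a gene as positive when any of its listed starts has a match, and they describe letters, not binding.

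Genes of fatty acid oxidation moved the other way. Of 19 genes of mitochondrial beta-oxidation, 18 were higher in the average and 5 in every group (Cpt1a, Decr1, Eci2, Hadha and Hadhb). These stand beside 20.3% and 1.87% of all tested genes, and the median change was 0.55. Of 20 peroxisomal genes, 16 were higher and 1 lower, and Phyh and Slc27a2 were higher in every group. Without Con replicate 3 and A10 replicate 3 these counts were 16 and 3, and 12 and 2. Cpt1a (chr19:3322334-3385733, plus strand), which admits fatty acids to mitochondria, ranged from 39.9 to 62.3 RPKM (median 47.3) without diet and STZ and from 69.2 to 159 RPKM (median 89.96) in the 12 STZ libraries (1.04 ± 0.11, adjusted p 1.19e-05, limma). Slc27a2, a fatty acid transporter with acyl-CoA synthetase activity, ranged from 237 to 333 RPKM and from 386 to 918 RPKM. Phyh, which starts the breakdown of phytanic acid, ranged from 919 to 1095 RPKM and from 1497 to 2138 RPKM. None of these 3 ranges overlapped. Decr1 and Eci2, which process unsaturated fatty acids, had medians of 48.7 and 75.5 RPKM without diet and STZ and of 68.5 and 146 RPKM with them, and their ranges overlapped.

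Targets of PPAR alpha were higher for 19 of 27 members in the average and for 7 in every group, beside 20.3% and 1.87% of all tested genes. Without Con replicate 3 and A10 replicate 3 these counts were 17 and 5. The list shares members with the oxidation lists, so the counts are not separate. Vnn1 (chr10:23894688-23905343, plus strand), a pantetheinase, rose from 1.19 to 2.19 RPKM to 2.25 to 52.98 RPKM (2.67 ± 0.37). The lowest of these was HS replicate 3 at 2.25 RPKM, and the 3 HSA10 libraries were the highest of the 12 at 47.9 to 52.98 RPKM. Its change differed among the STZ groups (adjusted p 0.0153, limma F test), with 4.34 in HSA10 and 2.06 to 2.19 in the others. Slc22a5, the carnitine transporter, changed by 0.94 and Creb3l3, a liver factor of lipid metabolism, by 0.61.

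Ketone body and glucose output genes were higher too. Of 6 ketone body genes, 4 were higher in the average and 2 in every group, beside 20.3% and 1.87% of all tested genes. Both counts held without Con replicate 3 and A10 replicate 3. Bdh1, which makes beta-hydroxybutyrate, ranged from 49.9 to 80.5 RPKM (median 73.8) and from 92.0 to 185 RPKM (median 118), with no overlap. Of 6 gluconeogenesis genes tested, 5 were higher in the average and Fbp1, Pck1 and Pcx in every group, or Fbp1 and Pck1 without those 2 libraries. Pck1 (chr2:173153048-173159273, plus strand), the enzyme that commits oxaloacetate to glucose, ranged from 287 to 553 RPKM (median 441) without diet and STZ and from 632 to 1294 RPKM (median 1064) with them. The change was 1.29 ± 0.08 (adjusted p 8.34e-08, limma), and all 12 libraries lay above the 6. Pck1 was also higher in A10 than in Con by 0.82 (adjusted p 0.0245), with 540 to 553 RPKM in A10 and 287 to 342 RPKM in Con. Fbp1, fructose bisphosphatase, ranged from 426 to 648 RPKM and from 742 to 1442 RPKM. G6pc, the enzyme that releases glucose, had a change of -0.20 and was not called.

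**Figure D4:**
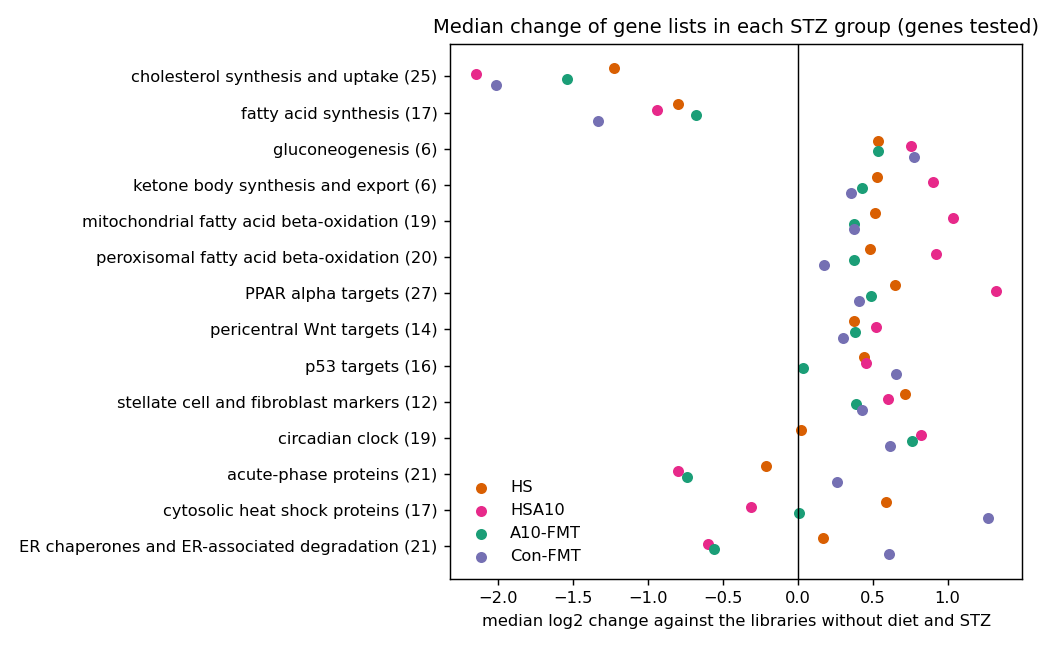
Points give the median log2 change of the tested members of 14 gene lists (number tested in parentheses) in each STZ group against the libraries without diet and STZ. Both synthesis lists lie left of 0 and the oxidation, ketone, gluconeogenesis and PPAR alpha lists right of 0 in all 4 groups, while heat shock, acute-phase and endoplasmic reticulum lists fall on both sides.

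Outside fuel metabolism, the gene with the largest shared rise was Cck (chr9:121489824-121495694, minus strand), which encodes the hormone cholecystokinin. It ranged from 1.35 to 7.55 RPKM (median 3.12) without diet and STZ and from 19.2 to 103 RPKM (median 43.7) in the 12 STZ libraries (3.33 ± 0.30, adjusted p 2.12e-06, limma). Its change did not pass the test of a difference among the STZ groups (adjusted p 0.656), with group values of 3.15 to 3.74. Cplane1, a gene of cilia formation, ranged from 0.53 to 0.61 RPKM and from 2.63 to 16.2 RPKM. Gpc1, a cell surface proteoglycan, ranged from 0.84 to 2.13 RPKM and from 4.77 to 19.0 RPKM. Apoa4, an apolipoprotein of triglyceride-rich particles, ranged from 183 to 384 RPKM and from 461 to 1683 RPKM. Krt23, a keratin, Gpcpd1, which breaks down glycerophosphocholine, and Hsd17b6, a steroid dehydrogenase, rose by 2.30, 1.95 and 1.63 on the log2 scale. Stap1, a signalling adaptor, and Coq10b, a coenzyme Q chaperone of mitochondria, rose by 1.76 and 1.61. These 9 genes were picked among shared genes whose 12 STZ libraries all lay above the other 6, so that separation is no separate result. Cplane1, Krt23 and Stap1 averaged 0.568, 0.205 and 0.688 RPKM without diet and STZ. They passed the filter of 1 RPKM only through the STZ libraries, and their low side lies near the floor.

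Among the genes with the largest shared falls, 4 came from families of near-identical copies whose reads can be split between members, and their values are uncertain. These were the acetyltransferase-like genes Nat8f7 (-3.04) and Nat8f5 (-2.18) and Raet1d (-2.80) and Raet1e (-2.34), ligands of the NKG2D receptor. Chrna4, a subunit of the nicotinic acetylcholine receptor, ranged from 1.16 to 7.99 RPKM without diet and STZ and was at 0.32 RPKM or less in all STZ libraries, with Con-FMT replicate 1 listed at 0. It passed the filter of 1 RPKM only through the libraries without diet and STZ, and its STZ values lie near the floor. Rdh11, a retinol dehydrogenase, ranged from 33.9 to 58.4 RPKM and from 3.91 to 21.8 RPKM.

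Retinoid genes were split. Of 17 tested, 8 were higher and 5 lower in the average, beside 20.3% and 12.1% of all tested genes. In every group, 5 were higher (Dhrs4, Rbp4, Rdh16, Rdh9 and Rxra) and 3 lower (Aldh1a7, Cyp26a1 and Rdh11). Without Con replicate 3 and A10 replicate 3, these were 1 higher (Rxra) and 2 lower (Aldh1a7 and Rdh11). Cyp26a1, which degrades retinoic acid, ranged from 20.6 to 38.4 RPKM (median 30.1) without diet and STZ and from 0.86 to 27.5 RPKM (median 1.5) with them. HS replicate 3 at 27.5 RPKM overlapped the first range, and the other 11 STZ libraries were at 8.77 RPKM or less. Rbp4 (chr19:38116629-38125281, minus strand), the carrier of retinol in blood, had medians of 2681 and 3532 RPKM (0.38 ± 0.07, adjusted p 9.98e-04, limma), with group changes of 0.32 to 0.43 and ranges that overlapped. The study reported RBP4 protein as lower in HS and raised by A10-FMT, a measure of protein and not of RNA. Rdh9, a retinol dehydrogenase, had medians of 6.81 and 17.4 RPKM.

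Of 22 genes of the cytochrome P450 list, 7 were higher and 6 lower in the average, beside 20.3% and 12.1% of all tested genes. Without Con replicate 3 and A10 replicate 3, these were 3 and 6, beside 1309 and 769 of all 10205 genes tested. In every group, 3 were higher and 1 was lower, beside 1.87% and 1.46% of all tested genes. Cyp2e1 (chr7:140763739-140774987, plus strand), the ethanol-oxidising enzyme of pericentral hepatocytes, ranged from 1755 to 2750 RPKM (median 2571) without diet and STZ and from 3014 to 6513 RPKM (median 5451) with them (1.08 ± 0.08, adjusted p 3.45e-07, limma). Its rise was 0.56 in HS and 1.14 to 1.36 in the other STZ groups (adjusted p 8.42e-04, limma F test). Por, which passes electrons to P450 enzymes, had medians of 43.9 and 123 RPKM, and Cyp2c37 of 30.3 and 68.0 RPKM, with no overlap for either. Cyp2c29 fell in every group (-2.07), but Con-FMT replicate 3 at 805 RPKM overlapped the range of 794 to 1103 RPKM. Neither Cyp2c29 nor Por was called in every group without Con replicate 3 and A10 replicate 3. Cyp2c37 and Cyp2c29 belong to a family of close copies. Of 27 conjugation genes, 9 were lower and 4 higher in the average, beside 12.1% and 20.3% of all tested genes. Without Con replicate 3 and A10 replicate 3, 9 were lower and 2 higher. In every group 4 were lower, all glutathione transferases (Gsta3, Gstm3, Gstm6 and Gstt3), or Gstm6 and Gstt3 without those 2 libraries. Gstt3 had medians of 25.3 and 8.92 RPKM and Gstm3 of 98.2 and 21.8 RPKM. Alas1, the rate-limiting enzyme of heme synthesis, had medians of 45.1 and 152 RPKM and changed by 1.88 ± 0.31, and was not called in every group without those libraries. Of 14 pericentral genes, 7 were higher and 1 lower in the average, beside 20.3% and 12.1% of all tested genes. Cyp2e1, Gulo and Slc13a3 were higher in every group, or Cyp2e1 and Gulo without those libraries.

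The study followed apoptosis and antioxidant proteins in liver, and the RNA of their genes is given here, which is another measure. It found no significant difference of GPX1 protein between Con and HS. Gpx1 (chr9:108338903-108340343, plus strand), a glutathione peroxidase, ranged from 1445 to 1566 RPKM (median 1488) without diet and STZ and from 1862 to 2485 RPKM (median 2034) with them (0.50 ± 0.05, adjusted p 5.72e-06, limma). All 12 STZ libraries were higher. Bax, a proapoptotic gene of the BCL2 family, had a change of 0.24 and was not called (adjusted p 0.0529). Of 16 p53 targets, 8 were higher and 1 lower in the average, beside 20.3% and 12.1% of all tested genes. With Con replicate 3 and A10 replicate 3 left out, 7 were higher and 1 lower. Phlda3, an inhibitor of AKT signalling, Ccng1, cyclin G1, and Aen, an exonuclease, were higher in every group, and Bbc3, the cell death gene PUMA, was lower in every group. Phlda3 ranged from 0.05 to 0.28 RPKM and from 0.88 to 6.52 RPKM, and it passed the filter of 1 RPKM only through the STZ libraries. Ccng1 had medians of 9.93 and 21.02 RPKM and Bbc3 of 4.08 and 1.46 RPKM. None of these ranges overlapped. Without Con replicate 3 and A10 replicate 3, Phlda3 and Ccng1 were called in every group and Aen and Bbc3 in the average. Of the other genes the study named, Acaa1a (0.57), Acaa2 (0.34) and Nr1h4 (0.28) were higher in the average but not in every group, and Acox2, Cyp7a1 and Nr1h3 were not called. Nr1h4 was not called without those 2 libraries (adjusted p 0.0653).

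Several further members were shared, picked from lists with members on both sides. In the average, 20.3% of all tested genes were higher and 12.1% lower. Higher and lower were 9 and 1 of 16 integrated stress response genes and 5 and 3 of 21 glucose and glycogen genes. They were 8 and 1 of 18 triglyceride storage genes and 13 and 4 of 31 urea cycle and amino acid genes. They were 5 and 2 of 16 apolipoprotein genes, 4 and 3 of 28 complement and coagulation genes and 3 and 3 of 13 male-biased. Trib3 and Sesn2, genes of the integrated stress response, had medians of 1.63 and 1.52 RPKM without diet and STZ and of 7.35 and 3.02 RPKM with them, and neither range overlapped. Ugp2, which makes UDP-glucose, rose by 0.79 and Ppp1r3b, a glycogen-targeting subunit of protein phosphatase 1, fell by 1.20 on the log2 scale. Mat1a, which makes S-adenosylmethionine, changed by 0.84, Haao, of tryptophan breakdown, by -0.44, and Gpat4, of glycerolipid synthesis, by 0.71. Apoe rose by 0.40 and Pltp, the phospholipid transfer protein, fell by 1.18 on the log2 scale, and Pltp was not called in the average against Con alone (adjusted p 0.0667). Mbl2, mannose-binding lectin, and F5, coagulation factor V, rose by 0.63 and 0.46. The calls of Mat1a, Haao, Ppp1r3b, Apoe and F5 in every group were lost without Con replicate 3 and A10 replicate 3. Cyp4a12a, a male-biased gene, ranged from 363 to 387 RPKM and from 152 to 291 RPKM, and it too has close copies.

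Markers of the other cell types of liver were counted in the same way. Of 12 stellate cell and fibroblast markers, 9 were higher in the average, beside 20.3% of all tested genes, and Reln and Rgs5 in every group. Without Con replicate 3 and A10 replicate 3 these counts were 6 and 0. The summed level of the list was 101 to 115 RPKM in Con, 112 to 129 in A10, 166 to 249 in HS, 172 to 184 in HSA10, 125 to 149 in Con-FMT and 129 to 162 in A10-FMT, and no marker was at 0 in every library. Rgs5 ranged from 9.08 to 10.4 RPKM and from 11.9 to 23.9 RPKM. Of 12 macrophage and Kupffer cell markers, 3 were lower in the average, beside 12.1% of all tested genes, and 0 without Con replicate 3 and A10 replicate 3. None was called in every group. Of 9 endothelial markers, 2 were higher in the average, beside 20.3% of all tested genes, and all 9 differed among the STZ groups, with 8 higher in HSA10 (median change 0.66) and 2 higher and 4 lower in Con-FMT. In the average, no neutrophil, erythroid or acinar marker was called. Summed erythroid markers ran from 1195 to 5417 RPKM in the groups other than HS and from 4214 to 12048 RPKM in HS. Of 9 hepatocyte markers, 4 were lower and 2 higher in the average, beside 12.1% and 20.3% of all tested genes. Without Con replicate 3 and A10 replicate 3 these counts were 2 and 2, beside 769 and 1309 of all 10205 genes tested. The 10 lymphocyte markers were below the expression filter. The part of these markers in the results above was not tested.

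The 4 STZ groups also differed from one another. An F test among them called 4663 genes, 45.7% of those tested. Among the shared genes it called 102 of the 191 higher ones (53.4%) and 46 of the 149 lower ones (30.9%). Of the genes not called in the average, 39.7% differed, and 306 genes were higher in one STZ group and lower in another. Clock genes were a case of both. Of 19, 17 differed among the STZ groups, and Nr1d1 and Nr1d2 (higher) and Npas2 (lower) were called in every group, also without Con replicate 3 and A10 replicate 3. Npas2, a partner of BMAL1, ranged from 2.90 to 3.61 RPKM and from 0.03 to 1.87 RPKM, with HS at 1.48 to 1.87 RPKM. Its median over the STZ libraries was 0.4 RPKM, under the filter of 1 RPKM. Nr1d1, the repressor REV-ERB alpha, was at 1.22 to 3.68 RPKM in Con, at 10.0 to 30.7 in A10 and at 17.2 to 58.5 in the STZ libraries, and A10 differed from Con by 2.45 (adjusted p 0.016, limma). Dbp, a clock-controlled factor, was at 1.79, 2.22 and 1.17 RPKM in HS, in the range of A10 (0.36 to 3.41 RPKM), and between 47.3 and 98.8 RPKM in all 9 libraries of the other STZ groups. The hour at which livers were taken is not given in the sources used here.

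Stress genes differed widely among the STZ groups. All 21 chaperones and degradation genes of the endoplasmic reticulum differed among the STZ groups, and none was called in every group. Herpud1, of endoplasmic reticulum degradation, was at 550, 439 and 474 RPKM in Con-FMT and at 87.1 to 204 RPKM in the other STZ libraries. Btg2, an immediate-early antiproliferative gene, was at 20.5, 24.2 and 17.9 RPKM in Con-FMT and at 1.03 to 7.76 RPKM in the other 9. Con-FMT replicates 1 and 2, which had the low acinar level of the other groups, were above the other 9 libraries for both genes. The part of acinar RNA in the values of Con-FMT was not tested. Among 21 acute-phase genes, 7 were lower and 1 higher in the average, beside 12.1% and 20.3% of all tested genes, and none was called in every group. Saa2, serum amyloid A2, was at 7018, 300 and 3826 RPKM in Con and at 23.7 to 110 RPKM in A10, so that its average change of -2.08 became 0.54 against A10 alone, and it was not called without Con replicate 3 and A10 replicate 3 (adjusted p 0.0584). Nnmt, which methylates nicotinamide, was at 13.9 to 51.3 RPKM in HS, 22.6 to 79.1 in Con-FMT, 1.34 to 3.50 in HSA10 and 1.79 to 8.91 in A10-FMT.

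**Figure D5:**
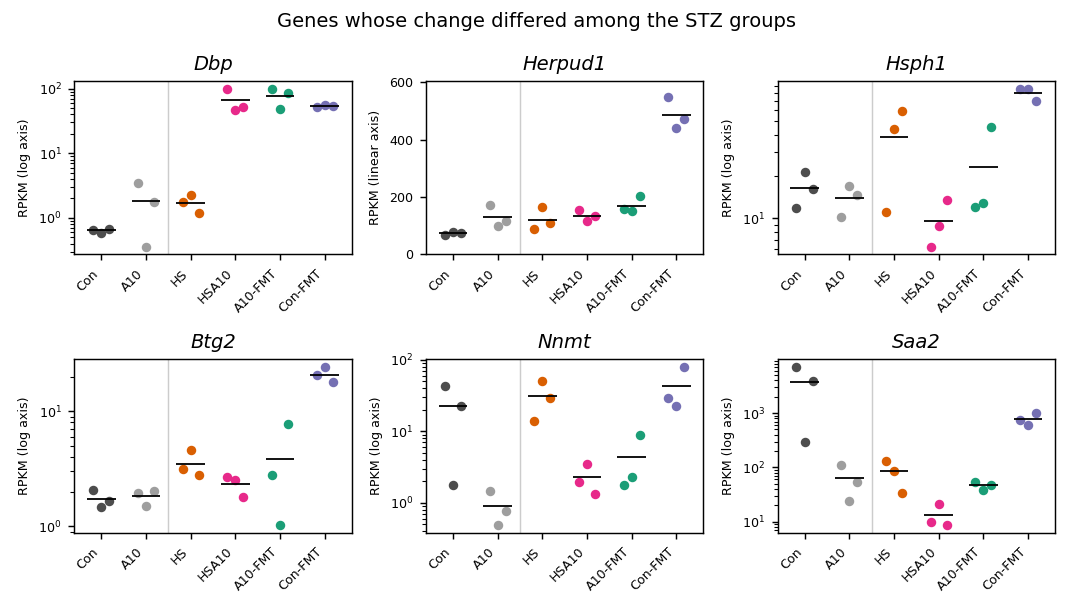
RPKM of 6 genes in each library (points) with the group mean (line), on a log or linear axis as marked, for genes whose change differed among the STZ groups. Dbp is low in HS (1.17 to 2.22 RPKM) and above 47 RPKM in the other STZ groups, Herpud1 and Btg2 are highest in the 3 Con-FMT libraries, and Saa2 spreads from 300 to 7018 RPKM within Con.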

How the data were processed

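Liver RNA-seq of 18 libraries was used, 3 in each of 6 groups taken from the labels, and blood, testis and microbiota data were not analysed here. The deposited table holds RPKM, which the authors computed per gene and library, for 19057 genes. The submitters' processing notes name Bowtie 0.12.2 and mm10, while the methods of the study name SOAPaligner. Those methods give SOAPaligner an option for reads with several matches, but how such reads entered the RPKM, and whether strand was used, are not given in the sources used here. All columns were matched to a sample by title.

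Log2(RPKM + 1) of the 10204 genes averaging 1 RPKM or more was fitted with 1 mean per group in limma 3.58.1 (R 4.3.3; lmFit, eBayes with trend), with Benjamini-Hochberg adjustment over all tested genes and a threshold of 0.05. The contrasts were each STZ group, and their average, against the mean of Con and A10, the difference of A10 and Con, and an F test among the STZ groups. Fold changes on this scale understate those of low genes. Python 3.11.15 was used for sequences and figures. The fit was tested on simulated data.

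Depth was estimated from 54 genes whose low values rise in readable steps, within a tolerance of 0.15 of whole multiples. The 28 of them with 1 transcript gave a median of 11300000 reads per library (quartiles 9600000 and 12300000), and no counting interval was computed from it. Positions are from GENCODE M21 on mm10, in which 18516 of 19054 symbols were found.

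The named genes were the 12 shared genes with the largest rise and the 12 with the largest fall whose libraries did not overlap, up to 4 shared members of each list by size of change, or 1 member where none was shared, the 6 genes of smallest F test p among those called in the average, and the genes the study named. Dates in place of symbols (26 genes) were left out, and a few genes are not reported here. Dhrs9 and Bcl2, which the study named, were below the filter. Other members of a list, Srebf1 and G6pc among them, were named after their values were seen. The comparison, the lists and the rules were chosen with earlier results of these data known. Alternatives covered the pseudocount, the filter, scaling, the variance trend, a replicate block, the reference group, the threshold, and each library left out in turn.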

Additional observations from a re-analysis of the deposited data

Results flagged for a closer look

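The changes of 61 of the 104 named genes differed among the 4 STZ groups by an F test over the 3 differences between them (limma), and the p of each, adjusted over all tested genes, is given in parentheses. Among them, Dbp, Ptp4a1, Sdc4, Slc12a7, Tbc1d8 and Zfp9 were named for having the smallest p in this same test, so the count is not set against the share of all genes. Groups of 3 libraries are too small for a test of single outlying libraries, and none was run.

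Of the genes higher in every STZ group, those with their largest change in HS were Apoa4 (0.0468) and Mat1a (0.0443). Of the genes higher in every STZ group, those with their largest change in HSA10 were Aen (4.22e-04), Bdh1 (0.0193), Ccng1 (3.63e-04), Cplane1 (5.70e-05), Cpt1a (0.0472), Decr1 (0.00292), Eci2 (0.0131), Gpc1 (1.14e-04), Gpcpd1 (0.0021), Hadhb (0.00319), Krt23 (0.00498), Nr1d1 (0.0406), Nr1d2 (3.25e-04), Pcx (0.0251), Phlda3 (0.00122), Rdh9 (0.00558), Rgs5 (0.00744), Sesn2 (0.00262), Slc22a5 (0.00851), Slc27a2 (0.0283), Trib3 (7.49e-04) and Vnn1 (0.0153). Of the genes higher in every STZ group, those with their largest change in A10-FMT were Cyp2e1 (8.42e-04), Gulo (0.00292) and Ugp2 (0.024). Of the genes higher in every STZ group, those with their largest change in Con-FMT were Coq10b (1.57e-04), Gpat4 (8.40e-04), Mbl2 (0.00388), Pck1 (0.00456) and Por (0.0496). Of the genes lower in every STZ group, those with their largest change in A10-FMT were Aldh1a7 (3.25e-04), Bbc3 (0.0406) and Npas2 (2.75e-04). Of the genes lower in every STZ group, those with their largest change in Con-FMT were Acacb (0.015), Gstt3 (0.00113) and Raet1e (0.012). Of the genes not called in every STZ group, those with their largest change in HS were Bax (0.0118), Ccnd1 (0.00737) and Igfbp2 (0.00491). Of the genes not called in every STZ group, those with their largest change in HSA10 were Acaa1a (0.0158), Cyp2b9 (0.0344), Fabp4 (0.00898), Nr1h4 (0.0238), Saa2 (8.39e-04), Sox9 (6.20e-04) and Stab2 (0.0431). Of the genes not called in every STZ group, those with their largest change in A10-FMT were Dbp (2.58e-06), S100a8 (0.0427) and Vsig4 (0.0273). Of the genes not called in every STZ group, those with their largest change in Con-FMT were Btg2 (1.57e-04), Herpud1 (5.12e-05), Hsph1 (0.00263), Nnmt (0.00367), Per1 (0.00241), Ptp4a1 (2.58e-06), Sdc4 (2.58e-06), Slc12a7 (5.64e-06), Tbc1d8 (5.37e-06) and Zfp9 (5.37e-06).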

How the results depend on the processing

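Without Con replicate 3 and A10 replicate 3 (above), 1309 genes were higher and 769 lower in the average, 98 and 76 in every STZ group, 1112 were called in HS, 954 in A10-FMT and 0 between A10 and Con. Without Con-FMT replicate 3 as well, these were 1235, 739, 78, 69, 1115, 985 and 0, and 2118 were called in Con-FMT. Without Con replicate 3 and Con-FMT replicate 3, 121 genes were higher in every group and 1 differed between A10 and Con. These 3 settings were chosen after seeing the data. Leaving out 1 library at a time gave 1113 to 2179 calls in HS, 1103 to 1880 in A10-FMT, 112 to 200 genes higher in every group and 0 to 72 between A10 and Con.

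Scaling to the median gave 1880 genes lower in the average and 237 in every group, and quantile normalization gave 232 in every group, with higher calls at 50.5% of those in the average. With Con alone as the reference, 743 were lower in the average and 96 in every group. With A10 alone, 987 were higher in the average, 77 in every group, 1180 were called in HS and 2131 in HSA10, and Saa2 turned to 0.54. Means of 2 sides with no group term gave 1035 higher and 661 lower. All 8 pairs of an STZ group with Con or A10 left 50 higher and 55 lower. With no filter, 18 genes differed between A10 and Con. Requiring 5 RPKM on average, 2112 were called in Con-FMT and 2940 differed among the STZ groups. The threshold of the study, a false discovery rate of 0.001 and a log2 change of at least 1, gave 80 higher and 83 lower, 6 and 10 in every group, 53 in HS, 252 in HSA10, 93 in A10-FMT, 295 in Con-FMT and 0 between A10 and Con. The cause of these differences was not tested, apart from the stricter threshold, fewer genes tested or fewer libraries that the settings themselves bring.

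A replicate block gave 179 genes higher and 156 lower in every group, 2005 and 1224 in the average, 1965 in HS, 3219 in HSA10, 1648 in A10-FMT, 3343 in Con-FMT, 4497 among the STZ groups and 5 between A10 and Con. Libraries with the same number correlated at a mean of 0.033 in their deviations from the group means, above 0.1 in 12 of 45 pairs. Those with different numbers correlated at a mean of -0.017, above 0.1 in 11 of 90 pairs. The main fit did not take the numbers as pairs, and whether they mark a shared batch was not tested.

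RPKM without counts limits the weight of low genes, and 3 libraries a group limit each group's own test.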

Other observations

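Ribosomal protein genes and a few single genes not described above are given here, and all of them were chosen after their values were seen. Of 76 ribosomal protein genes tested, 64 were lower and 0 higher in the average of the STZ groups (adjusted p under 0.05, limma), 13 were lower in every group, and the median change was -0.26 on the log2 scale against 0.04 for all tested genes. Many of these genes have processed copies in the genome, so their counting is uncertain.

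Among single genes picked from the 340 shared ones, with no list or count of members behind them, G6pdx (-0.75), Pgd (-0.78) and Tkt (-0.71), enzymes of the pentose phosphate pathway, were lower in every STZ group. Others picked in the same way were higher in every group, with changes of 1.29 for Abcg5 and 1.05 for Abcg8, which export sterols to bile, 1.31 for Abcb4, which exports phosphatidylcholine, 0.73 for Scarb1, the HDL receptor, and 0.86 for Npc1, of lysosomal cholesterol export. Mfsd2a, a lysophospholipid transporter, had the second largest shared rise at 2.74, and its libraries overlapped between the 2 sides. Angptl8, which takes part in the inhibition of lipoprotein lipase, had a change of -1.44.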
